A study of Mus musculus with 4 samples.

Results

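Heparan sulfate chains are built by a small set of Golgi enzymes, and the genes of 10 of them are described here in vascular smooth muscle cells (VSMC) of the mouse, which form the contractile layer of arteries. The members were chosen by name: the polymerases Ext1 and Ext2, the EXT-like enzymes Extl1, Extl2 and Extl3, the N-sulfotransferases Ndst1, Ndst2, Ndst3 and Ndst4, and the epimerase Glce. Each of the 10 genes had 1 probe set, out of 1246 probe sets and 909 named genes on the arrays. Streptozotocin, a glucosamine-linked nitrosourea toxic to pancreatic beta cells, was given at 0.4 mM to the cells of 2 arrays, and the cells of the other 2 arrays were controls. All cells were wild-type VSMC kept in osteogenic medium so as to become bone-like, and the controls were therefore osteogenic cultures too. The titles name 2 cell samples, WTA (replicate 2) and WT2 (replicate 1), called cultures here, and each gave 1 streptozotocin and 1 control array. Every title also holds the mark 3w, whose meaning is not stated and was not interpreted. The labels name no strain or artery, and do not say whether the cultures came from separate animals. The p-values therefore measure only the spread between these samples.

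Heparan sulfate is a sulfated sugar chain on cell-surface and matrix proteoglycans, where it binds growth factors, chemokines and lipoproteins. Its synthesis starts on a short linker sugar on the core protein, goes on by alternating addition of glucuronic acid and N-acetylglucosamine, and ends with sulfation and epimerisation in patches along the chain. The N-sulfotransferases act first among the modifying enzymes, and the later ones work mostly where N-sulfate has been placed. In artery walls, heparan sulfate is known as a regulator of smooth muscle growth and of lipoprotein retention.

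The levels of the members were examined to see which genes of each enzyme family gave a signal in these cells. Values are log2 intensities made by RMA, a method that corrects background and makes the arrays' distributions alike. Probe sets differ in brightness for the same amount of RNA, so a position among all probe sets describes the signal and gives no order of RNA amounts between genes. Quartiles and percentiles are over the 1246 probe sets of these arrays, which hold only a part of the genes of the mouse. Both polymerase genes lay above the upper quartile on all 4 arrays. Ext1, whose protein carries the chain-elongating activities, ranged from 9.63 to 10.36, and Ext2, whose protein forms a complex with that of Ext1, from 10.07 to 10.29. Among the EXT-like genes, Extl3, which starts the chain by adding the first N-acetylglucosamine, ranged from 9.72 to 10.00. Extl2, which can add that sugar to a phosphorylated linker and so end its growth, ranged from 9.37 to 9.87. Both lay above the upper quartile on every array, and the Extl3 identifier ends in s, which can mark probes shared between transcripts. Extl1 ranged from 4.87 to 5.12, at the 34.5th to 39.9th percentile and thus under the median on all 4 arrays. Its protein adds N-acetylglucosamine to growing chains, as known from the human enzyme.

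The N-sulfotransferase family was split by position. These enzymes remove the acetyl group of N-acetylglucosamine and put sulfate in its place. Ndst1, the family member of most mouse tissues, ranged from 9.01 to 9.54 and lay above the upper quartile on all arrays. Ndst2, known in mice for heparin synthesis in mast cells, ranged from 7.57 to 7.76, between the median and the upper quartile. Ndst3 ranged from 4.08 to 4.23 and Ndst4 from 3.46 to 3.74, both under the lower quartile on every array. Values there hold background as well as signal, so the arrays cannot tell weak expression of Ndst3 or Ndst4 from none. Ndst3 and Ndst4 lie near each other in the RefSeq mouse annotation, with 3 protein-coding genes between them. Glce, which turns glucuronic acid into iduronic acid after N-sulfation, ranged from 7.47 to 8.10, between the median and the upper quartile. In all, 5 members lay above the upper quartile on all 4 arrays, 2 between it and the median, 1 between the median and the lower quartile, and 2 under the lower quartile.

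**Figure D1:**
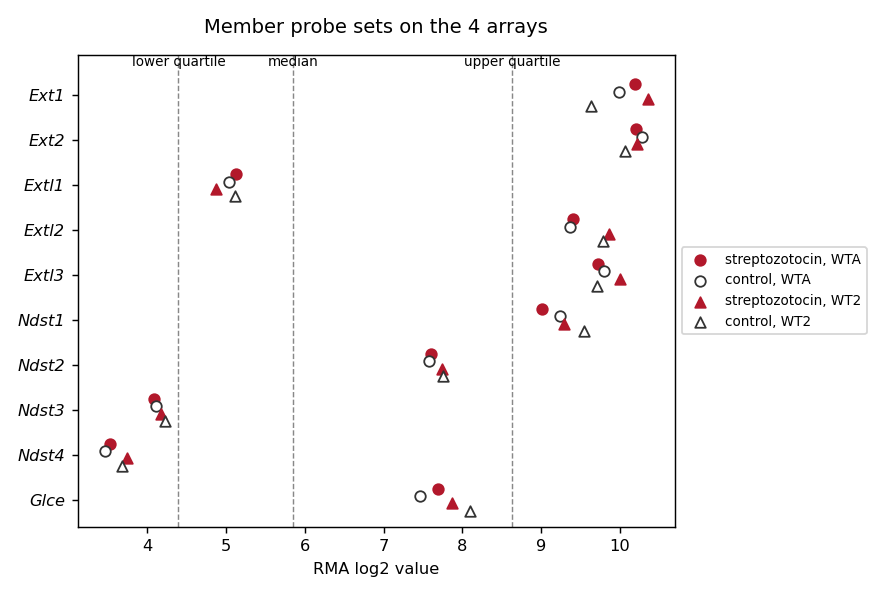
RMA log2 value (x axis) of each member's probe set (rows) on the streptozotocin (filled) and control (open) arrays of WTA (circles) and WT2 (triangles), with dashed lines at the mean quartiles of the 4 arrays. The 7 members above the median and the 3 under it keep their side on all 4 arrays, and the Ext1 triangles lie farthest apart, at 10.36 with streptozotocin and 9.63 in the WT2 control.

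The labelled cell type could be checked only in part. Of 14 smooth muscle and mural markers 4 had a named probe set. Pdgfrb, the receptor of platelet-derived growth factor B on mural cells, ranged from 9.38 to 9.68, above the upper quartile, and Notch3 and Cspg4 lay above the median on all arrays. The other of the 4, Mcam, lay under the median on all arrays, at 4.85 to 4.98. The contractile markers Acta2, Tagln, Myh11 and Cnn1 were not among the named probe sets. Pecam1, a defining endothelial marker, and Adgre1, a defining macrophage marker, lay under the lower quartile on every array. Cd34, of endothelial and progenitor cells, lay above the upper quartile on all arrays, at 8.93 to 10.46, and Esm1, an endothelial proteoglycan gene, did so on the arrays of WTA. Csf1r, a macrophage receptor gene, lay above the median, at 7.40 to 7.92, while 6 of 9 measured leukocyte and macrophage markers lay under the lower quartile on all arrays. Of 8 measured cytokine genes of lymphocytes, 7 lay there too, as did Ndst3 and Ndst4. The summed log2 values of the 4 mural markers overlapped between the arms, at 27.38 and 28.20 with streptozotocin and 28.27 and 27.92 in control cells (WTA first). Across probe sets, Pearson's r was 0.997 between both WTA arrays and 0.988 between both WT2 arrays. Between the cultures it was 0.985 and 0.988 for the streptozotocin array of WT2, and lower, 0.977 and 0.982, for its control array (each against WTA streptozotocin and then WTA control).

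**Figure D2:**
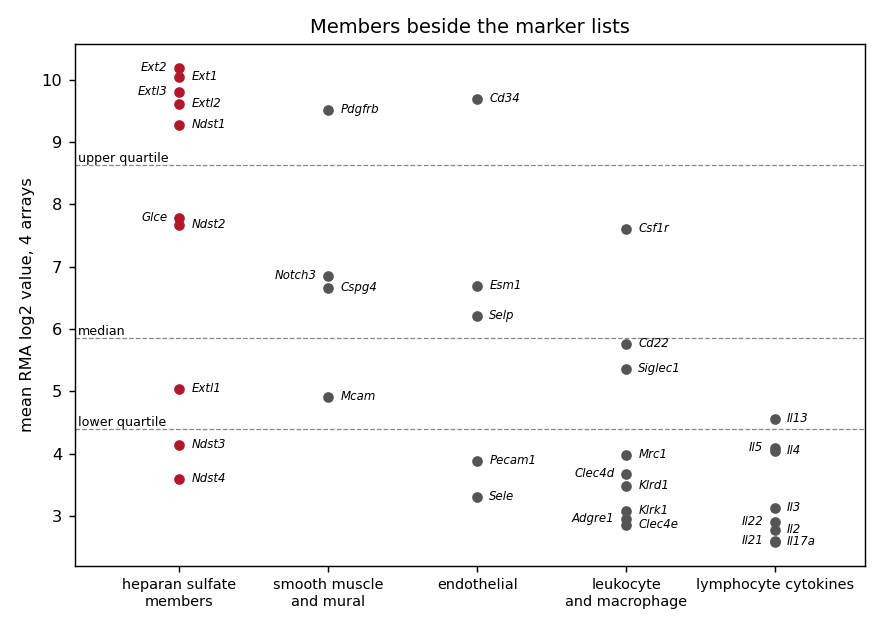
Mean RMA log2 value over the 4 arrays (y axis) of the 10 members and of the measured genes of 4 marker lists (x axis), 1 point a gene, with dashed lines at the mean quartiles. Members spread from under the lower quartile (Ndst4, Ndst3) to above the upper quartile (Ext2, Ext1), while the lymphocyte cytokines all lie under the median, and points of different genes show position and not amounts of RNA.

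Of the members with RefSeq promoter sequence (GRCm38.p6), 3 are shown, since they hold a pair from 1 family on opposite sides of the array median, Extl2 and Extl1, beside the N-sulfotransferase gene Ndst2. Each is the 250 bases before an annotated start, read in the direction of the gene, with CpG dinucleotides in capitals.
Extl2, chr3:116007199-116007448, plus strand: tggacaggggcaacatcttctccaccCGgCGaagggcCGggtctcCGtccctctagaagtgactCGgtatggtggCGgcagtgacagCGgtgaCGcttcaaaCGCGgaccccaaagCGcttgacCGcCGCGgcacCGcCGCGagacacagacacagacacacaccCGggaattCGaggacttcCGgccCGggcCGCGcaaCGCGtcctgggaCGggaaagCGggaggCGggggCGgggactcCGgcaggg
Ndst2, chr14:20734563-20734812, minus strand: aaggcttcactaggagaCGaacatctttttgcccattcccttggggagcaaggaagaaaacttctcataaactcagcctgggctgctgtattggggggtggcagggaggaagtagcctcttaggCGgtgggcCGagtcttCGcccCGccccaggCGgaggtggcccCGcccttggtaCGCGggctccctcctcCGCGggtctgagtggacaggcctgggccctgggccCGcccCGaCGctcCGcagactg
Extl1, chr4:134372548-134372797, minus strand: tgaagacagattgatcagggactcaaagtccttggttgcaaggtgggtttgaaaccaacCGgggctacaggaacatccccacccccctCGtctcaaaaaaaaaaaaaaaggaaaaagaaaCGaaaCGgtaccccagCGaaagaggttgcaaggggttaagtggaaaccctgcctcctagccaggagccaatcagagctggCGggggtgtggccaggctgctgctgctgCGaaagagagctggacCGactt

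These windows held 30 CpG in Extl2, 15 in Ndst2 and 8 in Extl1, against a median of 6 over 32841 windows of that length. The ratio of observed to expected CpG was 1.02 in Extl2, 0.572 in Ndst2 and 0.457 in Extl1, and 33.95% of all windows exceeded 0.6. Glce had a ratio of 0.891 and Ext2 one of 0.641. A second start of Extl2, 848 bases inside the gene, had 0.259, and the windows of Ndst3, both at starts inside the gene, had 0.294 and 0.09. The motif GGGCGG, read on both strands, was in the windows of Extl2 (first start), Ndst2 and Glce and in 32.7% of all windows. TATAAA, also read on both strands, was in none of the 8 member windows and in 12.4% of all. Windows of Ext1, Extl3, Ndst1 and Ndst4 were not used here. These counts describe the sequences and say nothing of which factors act there.

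Streptozotocin was then set against control, the comparison the study's design names for genes of sugar chain synthesis. Differences are streptozotocin minus control on the log2 scale, and fewer cells of a type cannot be told apart from less RNA per cell. No member passed the test: limma, fitted to all 1246 probe sets, gave 0 of 10 member probe sets at an adjusted p under 0.05, where 0 of all probe sets passed (0%). At an unadjusted p under 0.05 there were 0 members, against 2.01% of all probe sets. The polymerase gene Ext1 had log2 values of 10.19 (WTA) and 10.36 (WT2) with streptozotocin, against 9.99 (WTA) and 9.63 (WT2) in control cells. Both streptozotocin arrays were above both control arrays, as was so for 10.8% of all probe sets, and the lowest was the control array of WT2. The streptozotocin mean was 10.27 ± 0.11 and the control mean 9.81 ± 0.26 (SD, n = 2 each). The difference was 0.46 (SE 0.17, 95% interval -0.02 to 0.94), or 1.38-fold, with a limma adjusted p of 1. It was 0.20 in WTA and 0.72 in WT2. With the arrays of each culture paired in the fit, the 95% interval over both cultures was -0.009 to 0.93. Without the WT2 control array the difference was 0.28. In WT2, Ext1 was the member past 1.5-fold higher, as were 4.82% of all probe sets there, and 0 members were past 1.5-fold lower (2.49% of all). In WTA 0 members passed that fold in either direction (0.642% higher and 1.69% lower of all).

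Ext2, the partner of Ext1 in the polymerase, had 10.21 (WTA) and 10.22 (WT2) with streptozotocin, against 10.29 (WTA) and 10.07 (WT2) in control cells. The arms overlapped, and the difference was 0.03 (95% interval -0.29 to 0.36). Within each array, the log2 ratio of Ext1 to Ext2 differed between streptozotocin and control by 0.28 in WTA and 0.57 in WT2. A constant shift of an array's log2 values leaves such a ratio unchanged, while a scaling that varies with intensity can change it. With 1 array an arm in each culture the ratio was not tested.

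Over both cultures the EXT-like genes had small differences, but Extl3 and Extl1 had opposite signs in the cultures. Extl3 differed by -0.07 in WTA and 0.29 in WT2, and Extl1 by 0.08 in WTA and -0.25 in WT2. Extl2 differed by 0.04 in WTA and 0.08 in WT2. Extl3 stood at 9.73 (WTA) and 10.00 (WT2) with streptozotocin, against 9.80 (WTA) and 9.72 (WT2) in control cells, a difference of 0.11 (95% interval -0.27 to 0.49). Its arms overlapped, and the streptozotocin array of WT2 was the highest. Extl2 stood at 9.41 (WTA) and 9.87 (WT2) with streptozotocin, against 9.37 (WTA) and 9.79 (WT2) in control cells. Its 2 cultures lay farther apart than its arms, and the difference was 0.06 (95% interval -0.64 to 0.76). That interval holds the culture gap. With the arrays of each culture paired in the fit, the interval was -0.21 to 0.33. Extl1, dim on all arrays, stood at 5.12 (WTA) and 4.87 (WT2) with streptozotocin, against 5.04 (WTA) and 5.12 (WT2) in control cells, a difference of -0.08 (95% interval -0.44 to 0.28).

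Among the N-sulfotransferase genes, Ndst1 had 9.01 (WTA) and 9.29 (WT2) with streptozotocin, against 9.24 (WTA) and 9.54 (WT2) in control cells. The arms overlapped, and WT2 lay above WTA in both. Within the cultures the difference was close, -0.23 in WTA and -0.25 in WT2. Over both it was -0.24 (SE 0.17, 95% interval -0.73 to 0.25, limma adjusted p = 1), with a streptozotocin mean of 9.15 ± 0.20 and a control mean of 9.39 ± 0.21 (SD, n = 2 each). In a fit that paired the arrays of each culture through the replicate number, the interval was -0.51 to 0.02 (limma adjusted p = 0.769). That fit gave 0 members at an unadjusted p under 0.05, against 6.42% of all probe sets. The log2 ratio of Ndst1 to Ndst2 within an array differed by -0.26 in WTA and -0.24 in WT2. Ndst2 itself stood at 7.61 (WTA) and 7.74 (WT2) with streptozotocin, against 7.57 (WTA) and 7.76 (WT2) in control cells, a difference of 0.01 (95% interval -0.33 to 0.34). In WT2 it had the smallest absolute difference of the 10 members, with -0.02. The dim Ndst3 and Ndst4 differed by -0.04 and 0.06, which says little, since background compresses differences at that level.

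Glce, the epimerase gene, had 7.69 (WTA) and 7.86 (WT2) with streptozotocin, against 7.47 (WTA) and 8.10 (WT2) in control cells. Both control arrays lay outside the streptozotocin arrays, 1 on each side. The difference was 0.23 in WTA and -0.24 in WT2, and -0.01 over both (95% interval -0.74 to 0.73). With the arrays paired by culture, the interval was -0.44 to 0.43.

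**Figure D3:**
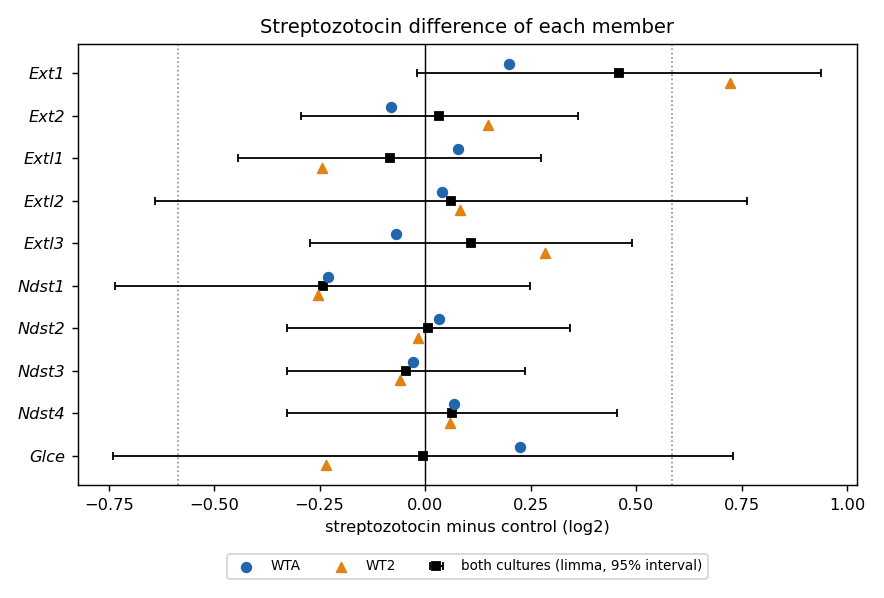
Streptozotocin minus control on the log2 scale (x axis) for each member (rows), in WTA (circles) and WT2 (triangles). Squares show the difference over both cultures with the 95% interval of the limma fit without pairing. Dotted lines mark 1.5-fold. All 10 intervals cross 0, the Ndst1 points of both cultures lie together at -0.23 and -0.25, and the Glce points lie on opposite sides of 0.

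Over the 10 members, 3 were higher with streptozotocin in both cultures (Ext1, Extl2 and Ndst4), against 22.6% of all probe sets. Another 2 were lower in both (Ndst1 and Ndst3), against 28.5% of all, and 5 had opposite signs, against 47.7% of all. These shares lie near those of all probe sets. The sign of Ndst3 in WTA turned to 0.01 when the arrays were centred on their medians. The median difference over the members was 0.02, against -0.01 over all probe sets. The median absolute difference was 0.07 in WTA and 0.19 in WT2 over the members, against 0.10 in WTA and 0.13 in WT2 over all probe sets. In the fit without pairing, the 95% intervals of the 10 members together spanned -0.74 to 0.94.

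The cultures were compared in a fit with treatment and culture, with differences as WTA minus WT2. Each culture gave 1 array an arm. A probe set's own error in this fit is therefore how far its treatment difference varied between the cultures, with no replicate within a culture. Of the 10 members 0 passed at an adjusted p under 0.05 in limma, against 2.25% of all probe sets, and 2 had an unadjusted p under 0.05, against 16.9% of all. The first was Extl2, with 9.41 (streptozotocin) and 9.37 (control) in WTA, against 9.87 (streptozotocin) and 9.79 (control) in WT2. Both WTA arrays were below both WT2 arrays. The difference was -0.44 (SE 0.09, 95% interval -0.71 to -0.17, limma adjusted p = 0.136), and it was -0.46 among the streptozotocin arrays and -0.42 among the controls. The other was Ndst1, with means of 9.13 ± 0.16 in WTA and 9.42 ± 0.18 in WT2. Each Ndst1 SD is over 1 streptozotocin and 1 control array, and so holds the treatment difference. Its difference was -0.29 (95% interval -0.56 to -0.02, limma adjusted p = 0.263). Glce had a difference of -0.40 (95% interval -0.84 to 0.03), with -0.17 among the streptozotocin arrays and -0.63 among the controls.

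For 6 of 10 members both WTA arrays lay below both WT2 arrays, against 27.7% of all probe sets, and for 0 members above, against 21.3%. The 6 were Extl2, Glce and all 4 N-sulfotransferase genes, and they stayed so after median centring and after quantile normalization. Ndst2 differed by -0.16, Ndst3 by -0.11 and Ndst4 by -0.21, with all 3 intervals crossing 0. Ndst3 and Ndst4 lay under the lower quartile on every array, where weak expression cannot be told from none. Their place among the 6 therefore says little about the N-sulfotransferase family. For Ext1, Ext2, Extl1 and Extl3 the arrays of the cultures overlapped, with differences of 0.10, 0.11, 0.09 and -0.10. The median over the members was -0.13, against -0.02 over all probe sets. The summed log2 values of the endothelial markers, 5 measured of 11, were 32.51 (streptozotocin) and 31.89 (control) in WTA, against 27.41 (streptozotocin) and 27.30 (control) in WT2. Nearly all of that gap was 1 gene: among the streptozotocin arrays, Esm1 stood at 9.33 in WTA, against 4.48 in WT2. Selp was also higher in WTA, with 6.93 (streptozotocin) and 6.27 (control), against 5.98 (streptozotocin) and 5.65 (control) in WT2. Cd34 went the other way, with 8.93 (streptozotocin) and 9.38 (control) in WTA, against 9.99 (streptozotocin) and 10.46 (control) in WT2. Pecam1 and Sele lay under the lower quartile on every array. Their part in the members' culture differences was not tested.

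**Figure D4:**
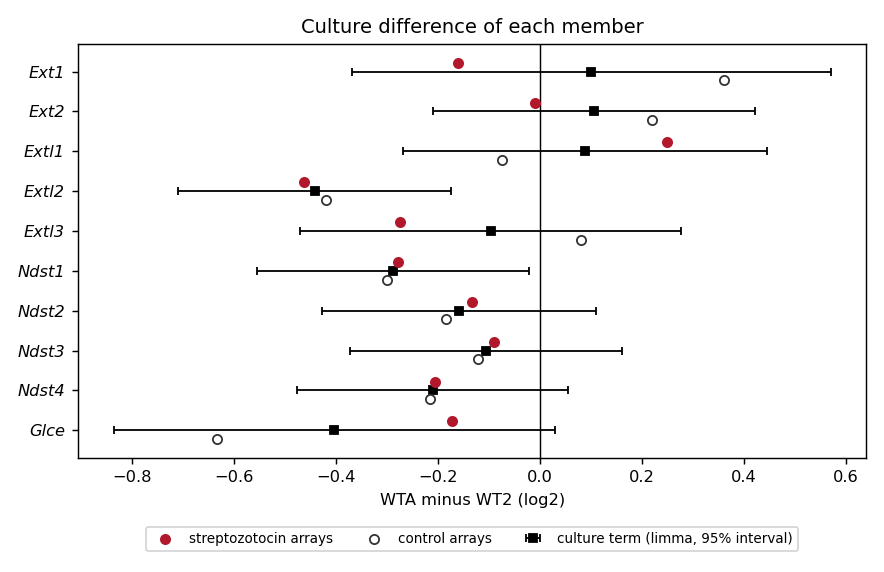
WTA minus WT2 on the log2 scale (x axis) for each member (rows), among the streptozotocin arrays (filled) and the control arrays (open), and as the culture term of the limma fit (squares with 95% interval). Extl2, Glce and the 4 Ndst genes lie left of 0 in both arms, and the intervals of Extl2 and Ndst1 do not reach 0. Ndst3 and Ndst4 were dim, under the lower quartile on every array.

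Ext1 had the widest range of the members over the 4 arrays, 0.72, which was wider than for 85.7% of all probe sets. The 4 named genes with the most similar profile, by Euclidean distance between mean-centred log2 values over 4 arrays, were Ggta1 (0.143), B3galnt2 (0.145), Prg4 (0.193) and Sult1d1 (0.223). Ggta1, which makes the alpha-galactose epitope, differed by 0.17 in WTA and 0.53 in WT2. B3galnt2, an enzyme of the dystroglycan sugar chain, differed by 0.08 in WTA and 0.61 in WT2. Prg4 and Sult1d1 were at 3.20 to 3.91 and 2.47 to 2.98, near the low end of the arrays. The WT2 control array held the lowest value of each, as it did for Ext1, a pattern by which they were chosen.

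Other genes of heparan sulfate were read from the same fit, in a list of 54 genes of which 45 were measured. Of the 45, 0 passed the test in either direction. Their median difference was -0.02, and 11 were higher in both cultures (24.4%, against 22.6% of all probe sets) and 16 lower in both (35.6%, against 28.5% of all). Hs6st2, which adds 6-O-sulfate, was past 1.5-fold higher in both cultures. It stood at 10.00 (WTA) and 8.47 (WT2) with streptozotocin, against 9.37 (WTA) and 7.82 (WT2) in control cells. Its difference was 0.63 in WTA and 0.65 in WT2. Over both cultures it was 0.64, with a limma adjusted p of 1 in the fit without pairing. The error of that fit holds the gap between the cultures, which was 1.54 for Hs6st2 (WTA minus WT2). Sulf1, an extracellular enzyme that removes 6-O-sulfate, stood at 9.79 (WTA) and 9.54 (WT2) with streptozotocin, against 9.55 (WTA) and 8.86 (WT2) in control cells. It differed by 0.24 in WTA and 0.68 in WT2, its arms overlapped, and the control array of WT2 was the lowest. The 2 largest negative differences were those of the glypican genes Gpc3, at -0.61 in WTA and -0.39 in WT2, and Gpc6, at -0.46 in WTA and -0.37 in WT2. By role, the median difference was -0.06 for 5 linker genes, -0.01 for 12 genes of O-sulfation and its removal, and 0.01 for 12 core proteins. It was 0.05 for 10 genes of sugar and sulfate donors and -0.07 for 6 genes of breakdown. Between the cultures 2 of the 45 passed the test, against 2.25% of all probe sets. Both were higher in WTA and of the O-sulfation group, and 1 of them was Hs6st2 (limma adjusted p = 0.026). Over all probe sets 0 calls were left in a fit with culture alone when the streptozotocin or the control array of WTA was removed.

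**Figure D5:**
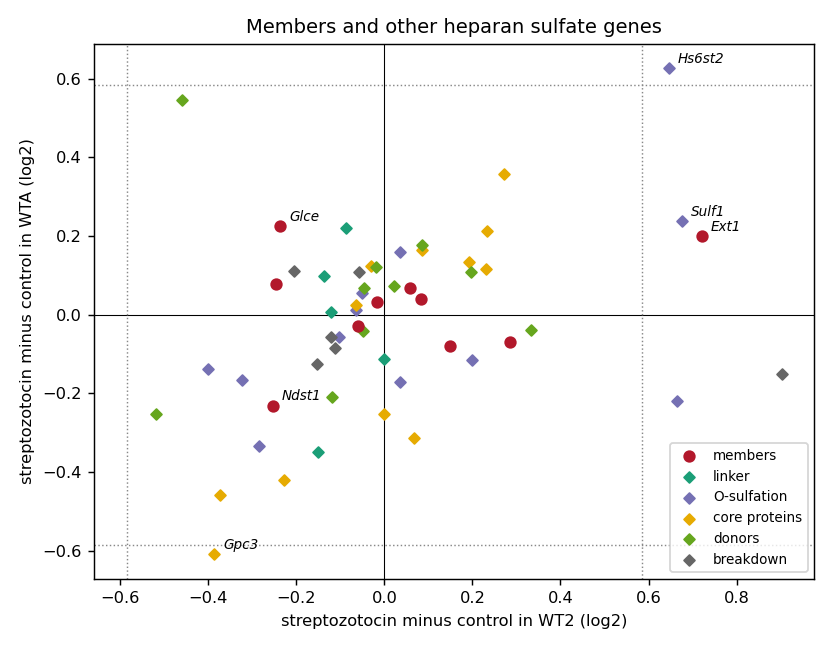
Streptozotocin minus control on the log2 scale in WT2 (x axis) and WTA (y axis) for the 10 members (red circles) and 45 other heparan sulfate genes (diamonds, coloured by role), with dotted lines at 1.5-fold. Hs6st2 is the 1 point past 1.5-fold in both cultures, Ext1 passes it in WT2 alone, and 9 of the 10 members lie within 1.5-fold in both cultures.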

How the data were processed

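Total RNA (0.5 ug a sample, extracted with Trizol) was labelled with biotin as cRNA for Affymetrix arrays, per the labels' protocols. The authors deposited 1 log2 value per probe set and array, computed by RMA according to the submitters' processing notes. The RMA version is not given in the sources used here. Since RMA equalises the arrays, a change common to most genes would be hidden, and 4 arrays limit the precision.

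Accessions in the probe set identifiers, without version, were matched to RefSeq mouse genes (GRCm38.p6, for names), which named 963 of 1246. The members and lists were chosen with earlier results of these data known. Other genes are named by rule: the 4 profiles nearest to the member of widest range, and in the wider list those past 1.5-fold in both cultures and the 2 largest differences in each direction. Genes of the marker lists are named where they bear on the cell type.

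limma 3.58.1 in R 4.3.3 compared streptozotocin with control over all probe sets without a block, and the cultures with treatment in the fit, with Benjamini-Hochberg adjustment and a threshold of 0.05. Each arm had 1 array of each culture, so without a block the error of the streptozotocin fit holds the gap between the cultures. The fits were tested on simulated data with independent noise. The simulated data for the streptozotocin fits held no culture effect, so they do not test what leaving out the pairing does. Same-numbered arrays are of 1 culture, and their deviations from the group means correlated at 0.600, so the numbers pair the arrays. The alternatives tried were pairing by a replicate block, leaving out arrays, other scalings (median, quantile), leaving out dim probe sets, other eBayes settings and another threshold.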

Additional observations from a re-analysis of the deposited data

Results flagged for a closer look

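For 5 members streptozotocin minus control had opposite signs in the cultures, with 1 array an arm in each, so the difference between the cultures was not tested. The gap, taken as WTA less WT2, was 0.46 for Glce (0.23 in WTA and -0.24 in WT2) and 0.32 for Extl1 (0.08 in WTA and -0.25 in WT2). It was -0.35 for Extl3 (-0.07 in WTA and 0.29 in WT2), -0.23 for Ext2 (-0.08 in WTA and 0.15 in WT2) and 0.05 for Ndst2 (0.03 in WTA and -0.02 in WT2). Of all probe sets 47.7% had opposite signs, so such a sign alone does not set these members apart.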

How the results depend on the processing

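No member passed the test under any of the alternatives run, in the streptozotocin or the culture comparison, and the streptozotocin count over all probe sets stayed at 0, with the replicate block too. The block changed no call: limma's smallest adjusted p among members was 0.738, for Ext1, and 80 probe sets had an unadjusted p under 0.05, against 25 without it. The culture count of 28 over all probe sets was 8 after quantile normalization, 2 among probe sets above the median level, 49 with robust eBayes and 64 at an adjusted p under 0.1. With 1 array left out the fit with both terms has no residual degree of freedom, and a fit with culture alone, added after seeing the data, gave 0 to 18: 18 without the streptozotocin array of WT2, 12 without its control array, and 0 without the streptozotocin or the control array of WTA. Median centring turned the streptozotocin difference of Glce to 0.0071 and that of Ndst3 in WTA to 0.0069. The streptozotocin differences of Ndst1 lay less close under other scalings. They were -0.20 in WTA and -0.26 in WT2 after median centring, and -0.16 in WTA and -0.22 in WT2 after quantile normalization. With 1 array left out, which unbalances the cultures, the streptozotocin difference kept its sign for Ext1 (0.28 to 0.64) and Ndst1 (-0.39 to -0.09). It ranged from -0.076 to 0.14 for Ext2, -0.21 to 0.040 for Extl1, -0.17 to 0.29 for Extl2, -0.030 to 0.25 for Extl3, -0.084 to 0.10 for Ndst2, -0.11 to 0.017 for Ndst3, -0.044 to 0.17 for Ndst4 and -0.32 to 0.31 for Glce. With 1 array left out, the culture difference is that of the arm left whole, so its range repeats the differences within the arms. These had opposite signs for Ext1 (-0.16 to 0.36), Ext2 (-0.0095 to 0.22), Extl1 (-0.074 to 0.25) and Extl3 (-0.28 to 0.080). The wider heparan sulfate list had 1 probe set a gene, so averaging probe sets left its median of -0.02 as it was. The cause of these changes was not tested.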
